A study of Aspergillus niger with 6 samples.

Results

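Late in a citrate fermentation of the filamentous fungus Aspergillus niger, 85 of 9953 listed genes reached their highest transcript level at 48 h after a gain of less than 2-fold from 6 to 24 h. These late-onset genes were chosen from the values themselves, over the 5 libraries of strain H915-1 grown at an air supply of 3 vvm (culture volumes of air per minute) and taken at 6, 12, 24, 36 and 48 h. FPKM is the number of sequenced fragments scaled by transcript length and by the mapped fragments of the library. A gene was a member if its highest FPKM was at 48 h, if that value was at least 10, if log2(FPKM + 1) spanned at least 2 (4-fold) over the 5 times, and if log2(FPKM + 1) was less than 1 (2-fold) higher at 24 than at 6 h. The choice thus used every value of the 5 libraries, and those values are given below as a description with no test of the members. A count model over all genes follows near the end, without a count of members. The 6th library, taken at 48 h from a culture of H915-1 at 1.5 vvm, and the places of the genes on the contigs were not used to choose them. Each group had 1 library of pelleted mycelium, with 5062817 to 6708034 fragments, so no difference between groups has a replicate check.

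A. niger is grown industrially in aerated, acidic, sugar-rich medium, where it takes up the sugar and secretes citric acid. Citric acid is made from glycolytic pyruvate through citrate synthase in the mitochondrion, and its production needs a steady oxygen supply. In filamentous fungi, genes for the steps of 1 secondary metabolite often lie side by side on a chromosome and are expressed together, frequently late in a culture. The files do not pair gene identifiers with names: of 14404 genes in the RefSeq table of assembly ASM285v2, 0 shared an identifier with the tables. No role is therefore given to any member, and all but 1 are named by contig and position as the authors' tables give them.

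The members were genes of moderate level. In time order from 6 to 48 h, their medians were 5.17, 5.79, 6.46, 15.9 and 37.0 FPKM. At 48 h they ranged from 10.1 to 774 FPKM, with quartiles at 17.3 and 107. Against the early level, meaning the highest of 6, 12 and 24 h, the log2 difference at 48 h had a median of 1.57 and ran from 0.17 to 5.93. At least 2-fold above the early level were 72 of the 85, where 3.98% of all 9149 genes kept were, at least 4-fold above it were 28, and at least 16-fold above it 9. The share of 3.98% is background for a contrast that chose the members, and nothing is read from the excess. No share over all genes is given for the 4-fold and 16-fold counts, which describe the members only. On the log2(FPKM + 1) scale, differences of low genes are understated.

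**Figure D1:**
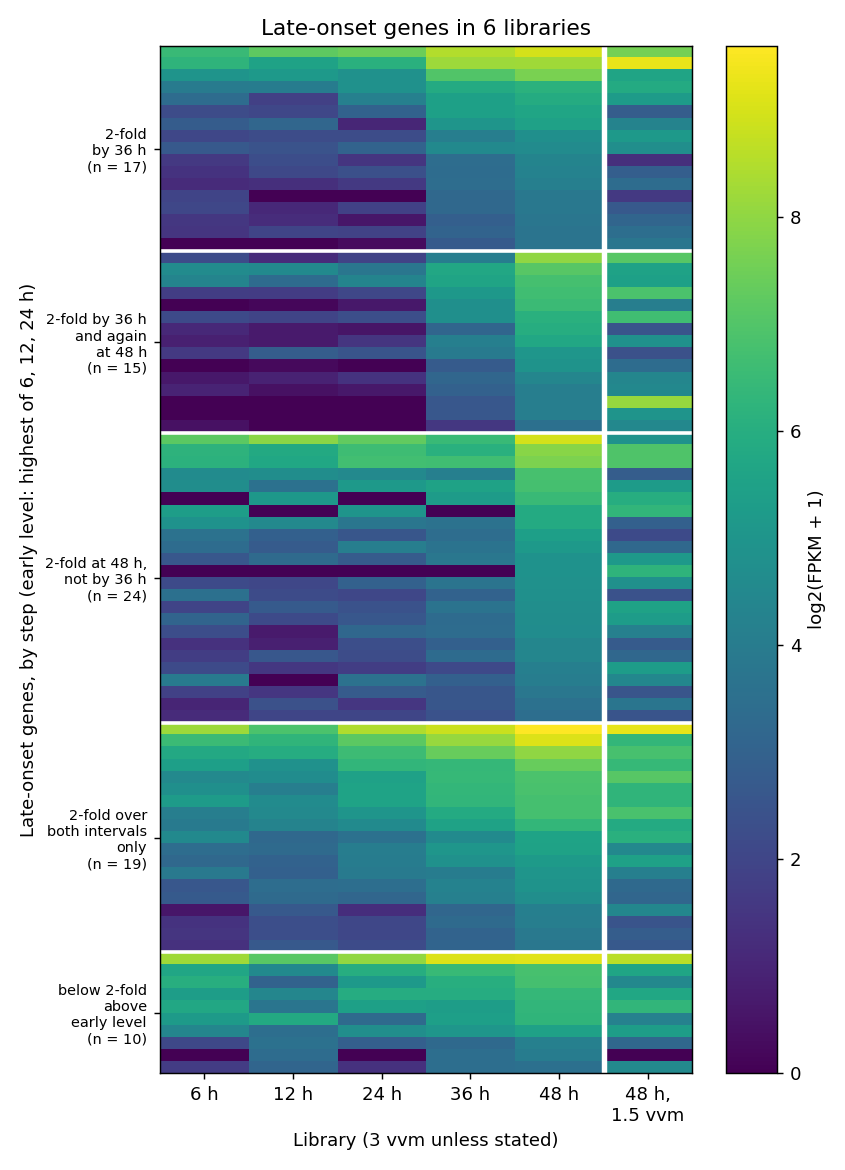
Level of each of the 85 late-onset genes (rows) as log2(FPKM + 1) in the 5 libraries at 3 vvm and, right of the white line, at 48 h and 1.5 vvm; each column is 1 library. Rows are sorted by when the gene moved away from its early level, in blocks of 17, 15, 24, 19 and 10 genes, and by FPKM at 48 h within a block.

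Genes lay close to each of the thresholds. The member lowest at 48 h (unitig_3, 3761906 to 3763565) was at 10.1 FPKM there, and the nearest gene outside (unitig_4, 3811575 to 3813345) was at 9.94. The smallest range among members was 2.002 on the log2 scale (unitig_1, 3577612 to 3579234), against 1.98 for the nearest gene outside (unitig_3, 2582277 to 2584984). The largest early gain of a member was 0.99 from 6 to 24 h (contig 1, 3219720 to 3220568), against 1.02 for the nearest gene outside (unitig_5, 624308 to 627482).

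The depth behind the members was uneven. At 48 h, 61 of them had at least 100 fragments, and the median was 232. Another 7 had fewer than 10, all on spans of 180 to 303 bases, where 1 fragment gives a high FPKM. The extreme case was a span of 180 bases (unitig_0, 6109808 to 6109987), with 0 fragments from 6 to 36 h and 1 at 48 h, which the authors' FPKM puts at 28.6. A count of 0 allows up to 3 fragments, so the course of that gene was not detectable at this depth. Members had a median span of 1339 bases, against 1512 for all genes. By exact 95% binomial intervals of the fragment ratio, which cover counting error only, 48 h lay above 36 h in 71 of the 85 members, and in 14 the interval included 1. The 48 h value lay above the early level in 77. The rule asks for the highest value at 48 h, so both directions were fixed by the choice. These counts describe depth only.

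The step away from the early level came at different times. In 32 of the 85 members, 36 h was already at least 2-fold above the early level, where 2.63% of 9122 genes were. Of these, 15 were at least 2-fold higher again at 48 than at 36 h, and 17 were not. A further 24 members were less than 2-fold above the early level at 36 h and at least 2-fold higher at 48 than at 36 h. In all, 39 members had gained at least 2-fold from 36 to 48 h, where 2.76% of 8866 genes had. Of the other 29, 19 were past 2-fold only over both intervals together, and 10 stayed less than 2-fold above their early level even at 48 h. With 3 of the 24 whose step from 36 to 48 h started from below that level, 13 of the 85 were less than 2-fold above it at 48 h. Both of these background shares belong to contrasts that chose the members. Without the 12 h library, 41 of the 67 genes that still met the rule (61.2%, in place of 37.6%) had the step by 36 h.

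**Figure D2:**
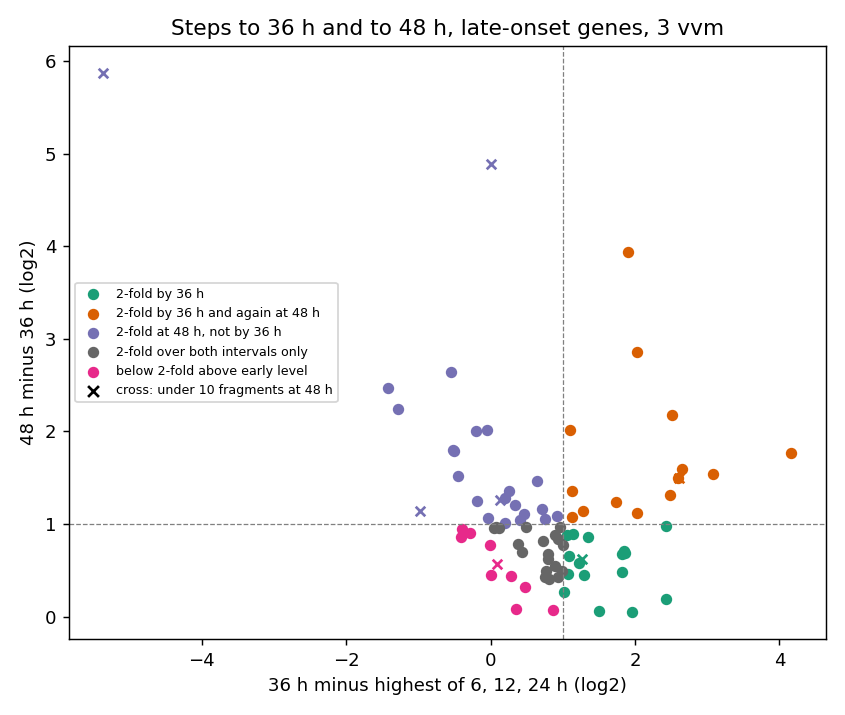
Log2 difference of 36 h from the highest of 6, 12 and 24 h (horizontal) against that of 48 h from 36 h (vertical) for the 85 late-onset genes at 3 vvm, 1 point per gene; dashed lines mark 2-fold. The 15 genes with both steps lie upper right, the 24 with a step at 48 h only upper left, and crosses mark the 7 genes with fewer than 10 fragments at 48 h, among them both points above 4.5 on the vertical axis.

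Genes with both steps went from the lowest early levels to a range of 10.8 to 258 FPKM. Their medians were 0.947, 0.626, 1.68, 14.6 and 52.4 FPKM from 6 to 48 h. Both members with the largest difference from the early level were among them. The gene on contig 1 from 4293928 to 4295529 was listed at 0, 0.137, 0.537, 26.5 and 92.6 FPKM in time order. Its fragments numbered 0, 1, 4, 198 and 785, so that 48 h was 170-fold above 24 h relative to depth (95% counting interval 66.3 to 627) and 3.49-fold above 36 h (2.98 to 4.10). The gene evm.model.unitig_1.500 (unitig_1, 1756418 to 1757170) was listed at 3.53, 1.24, 2.76, 15.9 and 258 FPKM. It stood 15.9-fold higher at 48 than at 36 h (11.5 to 22.6), with 39 and 705 fragments. The 2 genes thus differed in timing: that on contig 1 made most of its log2 gain by 36 h (4.16 of 5.93) and evm.model.unitig_1.500 after it (3.94 of 5.84).

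A total of 8 members were below 1 FPKM at 6, 12 and 24 h alike. Their median was 5.34 FPKM at 36 h and 16.3 at 48 h. Of these 8 genes, 2 had fewer than 10 fragments at 48 h. One with more reads lay 44.2 kb from the start of unitig_2 (44227 to 45199). It had 0 fragments at 6, 12 and 24 h, 18 at 36 h and 67 at 48 h, and 130 at 1.5 vvm, or 5.06, 16.1 and 30.2 FPKM for the last 3. At the same early level, the gene on unitig_4 from 2735348 to 2736469 had 0, 0, 1, 25 and 61 fragments from 6 to 48 h.

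The most abundant members were expressed at every time. The gene on unitig_1 from 754602 to 755022 had 294, 117, 347, 449 and 774 FPKM in time order. That on unitig_4 from 3558816 to 3560517 had 302, 141, 265, 548 and 577 FPKM, a 48 h value 1.08-fold that at 36 h (1.03 to 1.12). Both were lowest at 12 h. The gene on unitig_2 from 1543309 to 1545144 had 91.1, 76.8, 142, 278 and 546 FPKM, near a doubling over each interval from 12 h on. The gene on contig 1 from 491798 to 492650 had 91.0, 148, 173, 363 and 501 FPKM, never lower than at the time before. Of the 85 members, 16 had such a course, a count given as description only, with no share over all genes beside it.

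A low point at 12 h was common. It was the lowest of the 5 times in 40 members, while 32 were lowest at 6 h (the earlier time where values tied), 10 at 24 h and 3 at 36 h. These counts describe the members only and have no share over all genes beside them. Lower at 12 h than at both 6 and 24 h were 38 members (44.7%), against 26.2% of all 9953 genes. A dip widens the range that the rule asks for, so this share is partly set by the choice. The 10 members with no 2-fold step that stayed within 2-fold of their early level had medians of 37.7, 11.6, 30.2, 40.6 and 77.1 FPKM in time order. Of the 10, 6 were lowest at 12 h.

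The 3 members lowest at 36 h formed a small set with a late reversal, chosen here after their values were seen. The gene on unitig_1 from 4902137 to 4903828 had 144, 244, 154 and 90.2 FPKM up to 36 h and then 502, 5.73-fold above 36 h (5.28 to 6.24). The gene on unitig_1 from 4589871 to 4591944 had 23.9, 24.99, 21.9 and 16.7 FPKM and then 110, 6.49-fold above 36 h (5.38 to 7.88). The gene on unitig_0 from 6083856 to 6085674 had 28.8, 21.8, 12.5 and 11.2 FPKM and then 56.8. At 1.5 vvm these genes stood at 28.4, 6.19 and 6.78 FPKM, each below all of its values at 3 vvm. That was no trait of the members: 5 of 84 (5.95%) were lowest at 1.5 vvm of all 6 libraries, against 9.21% of 9930 genes.

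The library at 1.5 vvm shows the level of the members at 48 h in 1 culture with less air. With 1 library at each air supply, air cannot be told apart from culture or library. At 1.5 vvm the 84 members listed with that library were split: 36 were at least 2-fold above their early level at 3 vvm, 40 were within 2-fold of it and 8 were at least 2-fold below it. Among all 9805 genes kept, 13.4% were at least 2-fold above and 5.70% at least 2-fold below. Among the 6625 genes that, like the members, had at least 10 FPKM at 48 h and 3 vvm, the shares were 4.06% above and 5.69% below. For the members they were 42.9% (95% interval 32.1 to 54.1) and 9.52% (4.20 to 17.9). The 1.5 vvm level was not used by the rule, but the early levels it is set against were chosen low, so part of the share above can come from the choice. Genes are not replicates, and the intervals treat them as independent.

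Relative to 48 h at 3 vvm, more members were lower at 1.5 vvm than higher. At least 2-fold lower were 35 of 84, or 41.7% (31.0 to 52.9), and 4 were at least 2-fold higher. Among all 9787 genes kept, 2.83% were lower and 22.1% higher, and among the 6625 genes of at least 10 FPKM, 3.82% and 8.57%. The members were taken at their highest in the 48 h library, which by itself favours a lower value elsewhere, and the libraries come from separate tables. At all 9930 shared genes, the tables give the same FPKM for 24 h. When every library was rescaled to the same FPKM sum, the median log2 difference of all genes moved from 0.28 to 0.04. Then 43 members were lower and 2 higher, and among the 6625 genes 6.38% lower and 5.27% higher. The share of lower genes among those past 2-fold went from 30.8% to 54.8% in these 6625 genes and from 89.7% to 95.6% in the members.

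**Figure D3:**
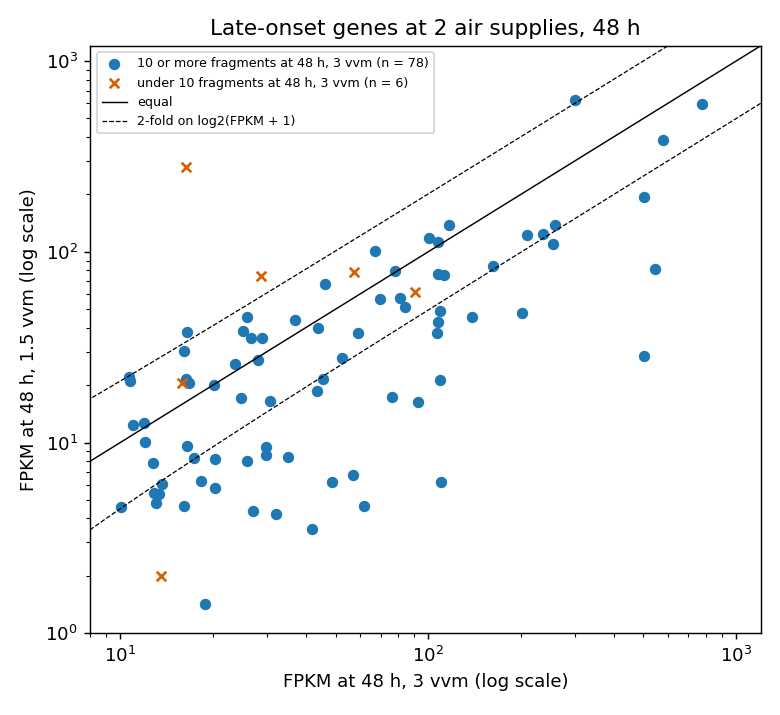
FPKM at 48 h at 3 vvm (horizontal, log scale) and at 1.5 vvm (vertical, log scale) for the 84 late-onset genes listed in both tables, 1 point per gene; the solid line marks equality and dashed lines 2-fold on log2(FPKM + 1). More genes lie below the lower dashed line (35) than above the upper (4), and 2 of those 4 are crosses, with fewer than 10 fragments at 48 h and 3 vvm.

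The members were also counted at 1.5 vvm by their timing at 3 vvm. Of the 32 members with a 2-fold step by 36 h, 22 were at least 2-fold above their early level at 1.5 vvm, and of the 52 listed members without it, 14 were. Of the 15 with both steps the count was 13. The timing and the level at 1.5 vvm are set against the same early level, so a low early value raises both, and no link between them is read from these counts. The 8 members below 1 FPKM early were all at least 2-fold above that level at 1.5 vvm, between 9.42 and 277 FPKM, and 2 of them were at least 2-fold lower than at 3 vvm. From so low a level a few FPKM pass 2-fold. No share over all genes this low early is given, and nothing is read from the count. In the library at 1.5 vvm, the 442 genes that stayed under 0.5 FPKM at all 5 times had a median of 1.57 FPKM. They were chosen as low at 3 vvm, which by itself favours a higher value elsewhere. No library at 3 vvm was left out of such a choice for comparison, so the median is no measure of background. With 1.57 taken off each gene, 35 members were still at least 2-fold above their early level and 37 were lower than at 3 vvm.

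Single members with enough reads went far only downward. Among the 78 members of at least 10 fragments at 48 h, the log2 difference of 1.5 from 3 vvm ran from -4.10 to 1.16. The gene on unitig_1 from 4902137 was 18.7-fold lower at 1.5 than at 3 vvm (16.5 to 21.3), at 248 against 4219 fragments, and 8.68-fold below its 12 h value (7.59 to 9.96). The gene on unitig_1 from 4589871 was 17.8-fold lower (13.6 to 23.6). Of the 3 members with the lowest relative level at 1.5 vvm, the third (unitig_3, 2154972 to 2155202) had 2 fragments at 48 h. It was not listed with the 1.5 vvm library and was ranked with 0 there, and its course was not detectable. Next lowest among listed members was the gene on unitig_6 from 1959142 to 1962419, at 82 against 1072 fragments. Highest relative to 3 vvm was a span of 267 bases on unitig_6 (38508 to 38774), with 4 fragments at 3 vvm and 79 at 1.5 vvm, 18.0-fold higher (6.74 to 67.5). It had 0 fragments at 6, 12 and 24 h. The span of 180 bases on unitig_0 came next, with 1 and 4 fragments, a ratio of 3.64 with an interval from 0.360 to 179. The gene on unitig_0 from 1464021 to 1464850 had 3.47, 1.94, 2.37, 3.33 and 16.5 FPKM over time and 38.1 at 1.5 vvm, 2.39-fold higher (1.64 to 3.53).

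The most abundant members also differed at 1.5 vvm. The genes on unitig_1 from 754602 and unitig_4 from 3558816 were at 598 and 386 FPKM, within 2-fold of 774 and 577 at 3 vvm. The gene on unitig_2 from 1543309 was at 81.2 in place of 546 FPKM, 7.15-fold lower (6.57 to 7.80) and close to its 12 h value. The gene on contig 1 from 491798 was at 193 in place of 501 FPKM.

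The members were set beside 2 like groups chosen by the same level and range: 233 genes highest at 48 h that had gained at least 2-fold by 24 h, and 221 genes highest at 36 h. At least 2-fold above the early level at 1.5 vvm were 42.9% of the members, 18.5% of the early risers (13.7 to 24.0) and 17.4% of the genes highest at 36 h (12.6 to 23.0). The early level of the early risers includes their gain by 24 h, so it is set higher by the choice. For the genes highest at 36 h, that gain was not limited. Their medians were 6.92, 22.1 and 25.5 FPKM at 6, 12 and 24 h, so their early level can also include a gain. At least 2-fold lower at 1.5 than at 3 vvm were 41.7% of the members, 32.2% of the early risers (26.2 to 38.6) and 9.59% of the genes highest at 36 h (6.03 to 14.3). The members and the early risers were chosen as highest in the 48 h library at 3 vvm, which favours a lower value at 1.5 vvm. The genes highest at 36 h were already past their peak there, with a median log2 difference of -0.48 from 36 to 48 h. Their share is thus set lower by the choice. On the way from the 24 h value (0) to the peak value at 3 vvm (1) in log2 terms, the 1.5 vvm library stood at a median of 0.587 for the members (quartiles 0.216 and 1.06). For the early risers the median was 0.226 and for the genes highest at 36 h 0.462. The 24 h and peak values were used to choose the groups, so these medians are partly set by the choice. When every library was rescaled to the same FPKM sum and the rule applied again, the median for the members was 0.408 (82 genes). No rescaled value is given for the like groups. The quartiles of the groups overlap, and the differences between groups were not tested, since genes are not replicates.

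The members lay on all 8 long contigs, from 5 of 1075 genes on unitig_4 to 19 of 1416 on unitig_1. Of the 85, 6 (7.06%, 2.63 to 14.7) had another member as the next listed gene on either side, in 3 pairs, and no group of 3 or more was found with at most 2 listed genes between neighbours. Members made up 0.854% of all genes, and a gene has a neighbour on either side. The share beside another member depended on the rule, at 18.2% with a pseudocount of 5 FPKM and 0% with a minimum of 50 FPKM. Among the early risers 21.9% (16.8 to 27.8) lay beside another early riser, and among the genes highest at 36 h 23.5% (18.1 to 29.7) beside another of their kind. Those groups hold more genes, which alone raises such a share.

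The genes around the 3 pairs took various courses, some of them with a later rise. The pair on contig 1 from 4291566 to 4295529, which holds the gene from 4293928, had 1157 bases between its genes. The first gene (4291566 to 4292770) had 0, 0.196, 0 and 5.82 FPKM up to 36 h and then 29.7, from 173 fragments. Its neighbour moved at the same times. At 1.5 vvm they were at 9.42 and 16.2 FPKM, both lower than at 3 vvm. The nearest gene on the lower side (4289730 to 4290779) was also highest at 48 h, but at a low level, with 0, 0.994, 0.315, 0.333 and 1.97 FPKM in time order from at most 7 fragments. Farther out on that side, the genes from 4275706 and 4273945 had their onset by 12 h, when FPKM went from 1.25 to 273 and from 2.56 to 1220, and at 48 h they stood at 243 and 851. The next gene on the other side (4297990 to 4298637) had at most 0.441 FPKM at 3 vvm. The third gene on that side (4309300 to 4310019) had 0.709, 2.96 and 6.22 FPKM at 24, 36 and 48 h.

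The pair on contig 1 from 157771 to 160730, with 502 bases between, held genes at 6.98 and 7.94 FPKM after 36 h. They had 16.3 and 20.2 FPKM after 48 h, and 21.5 and 20.1 FPKM with 1.5 vvm. Neither gene passed 1.68 FPKM at 6, 12 or 24 h. The gene before it (153919 to 156700) went from 1.20 at 6 h over 5.39 at 24 h to 10.6 FPKM at 48 h, and the gene after it (161745 to 162869) from 6.02 down to 0.619. The pair on unitig_1 from 2767396 to 2771195, with 849 bases between, went from 1.82 to 16.7 and 52.4 FPKM in its first gene over the last 3 times, and from 1.98 to 9.73 and 16.5 in its second. The gene before it (2760619 to 2766921) lay between 46.1 and 61.4 FPKM at 3 vvm. The gene after it (2772347 to 2773816) went from 12.2 FPKM at the start to 29.8 and 25.4 at the last 2 times. Listed spans of members overlapped a neighbour in 0 of 85 cases, and the strand of the genes is not given in the tables.

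**Figure D4:**
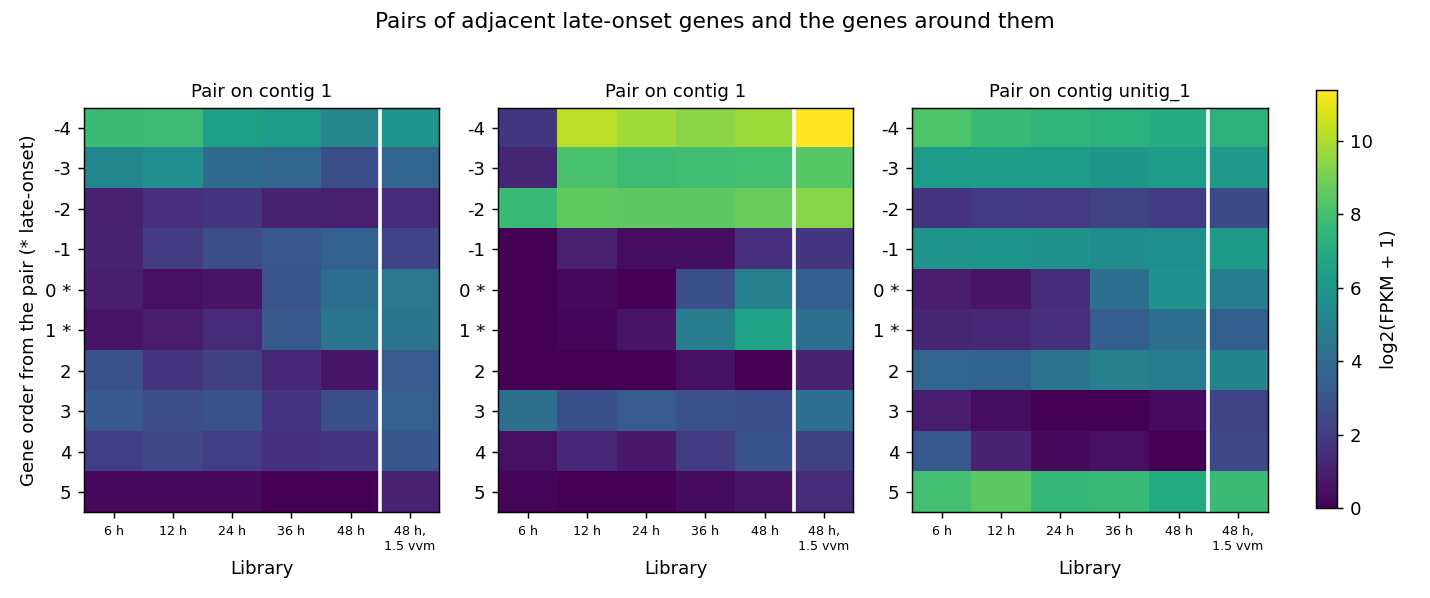
Levels as log2(FPKM + 1) of the 3 pairs of adjacent late-onset genes (starred rows 0 and 1) and the 4 listed genes on each side, in gene order on the contig, in the 5 libraries at 3 vvm and, right of the white line, at 48 h and 1.5 vvm. The starred rows brighten at 36 and 48 h, and some rows around them rise less. The gene before the first pair (10.6 FPKM at 48 h) rises at every time from 6 h on. In the second block, the genes at 1.97 and 6.22 FPKM at 48 h rise less and late.

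Over all members, the genes next to them were higher at 48 h somewhat more often than genes in general. Of 138 immediate neighbours that were kept and were no members, 15.2% (9.67 to 22.3) had gained at least 2-fold from 24 to 48 h, against 6.62% of 8891 genes. At least 2-fold lower were 2.90% (0.795 to 7.26) and 3.21%. Their median log2 difference was 0.27, against 0.01 over all genes. Against 36 h the shares of higher genes were 5.11% (2.08 to 10.2) and 2.76%. Neighbouring genes are not independent, and no test was made. Near contig ends, 3 of the 85 members lay within 100 kb (3.53%, 0.734 to 9.97), against 4.40% of all genes on long contigs. They were the gene on unitig_2 from 44227, the short span on unitig_6 from 38508, and a gene on contig 1 (97430 to 99016) at 29.7 FPKM at 48 h and 8.62 at 1.5 vvm.

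A count model over time, added after the data were seen, was fitted to fragments recovered from the scaled columns. With edgeR's quasi-likelihood test on log2 time over the 5 libraries at 3 vvm, 874 of 8987 genes (9.73%) rose and 858 fell at a Benjamini-Hochberg adjusted p below 0.05. With time in hours, 262 rose and 173 fell. Members were chosen for a rise in the same libraries, so no count of members is given. The spread in this model is the deviation of single libraries from a line and not that of replicates.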

How the data were processed

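Pellet RNA was column-purified and made into 6 Illumina TruSeq RNA libraries, per the labels' protocols. FPKM values are the authors' own and were used as deposited. TopHat2 2.0.9 and Cufflinks 2.1.1 are named, without their roles, per the submitters' processing notes. Genome build, annotation and use of strand: not given in the sources used here. Count columns hold a signal that the authors scaled to equal totals before it was deposited. Division by their smallest step gave whole fragments, within 0.1, for at least 99.9% of values per library. A further 4 value columns matched no label and were not used. Tables were merged by position, and starts were raised by 1 so that positions count from 1.

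Log2 values are log2(FPKM + 1). Genes were kept at 1 FPKM or more on either side of a comparison and counted at 2-fold. Intervals are exact 95% Clopper-Pearson intervals from fragments or gene counts, for counting error only, and a count of 0 allows 3 fragments. Contigs of at least 100 genes were called long. Distance to a contig end was counted from its first base or from the end of its last listed gene, since contig lengths were not used. edgeR 4.0.16 in R 4.3.3 used TMM and at least 15 fragments in total. The rule and the edgeR step were tested on simulated data. Members and lists were chosen with earlier results of these data known. Named were the 2 members with the largest difference from the early level, the 5 most abundant, those nearest each threshold, and the 3 highest and 3 lowest at 1.5 relative to 3 vvm. The rule also named groups of at least 3 members; none was found, so the pairs, and other genes given by position, were chosen after their values were seen.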

Additional observations from a re-analysis of the deposited data

How the results depend on the processing

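Of 69 recomputed values, 62 stayed within the error of the value as reported, taken as the 95% interval or, for the number of members, 1.5 times. Most alternatives reuse many of the same genes, such as 77 of 83 with a pseudocount of 0.5 FPKM. The tally is therefore no independent check. The alternatives were other pseudocounts, level filters and scaling, and the rule without 12 or 36 h. Others were the median of 1.57 FPKM taken off at 1.5 vvm, other distances, and at least 10 fragments. Membership followed the level filter, with 139 members without it and 36 at a minimum of 50 FPKM. Without the filter, 30.4% were lower at 1.5 vvm in place of 41.7%. At 50 FPKM, 0% lay beside another member and 0% near contig ends, with fewer genes left. A pseudocount of 5 FPKM kept 43 of the 85 members among 66 and put 18.2% beside another. The number of 66 is counted as within the error, although many of the genes differ. Without 12 h, 61.2% of the 67 genes left had the step by 36 h, where both the early level and the choice of genes lack that library. The causes of these changes were not tested. The step by 36 h could not be recomputed without the 36 h library. No paired analysis was possible because each group had 1 library. Depth limits the 7 members with fewer than 10 fragments at 48 h; without them, 43.6% of 78 were lower at 1.5 vvm and 43.6% above their early level.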
